A study of Mus musculus with 11 samples.

Results

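The 10 genes described here encode transforming growth factor beta (TGF-beta) ligands, the receptors for these ligands, and transcription factors of the epithelial-mesenchymal transition. They were chosen by name, as 3 ligands (*Tgfb1*, *Tgfb2* and *Tgfb3*), 3 receptors (*Tgfbr1*, *Tgfbr2* and *Tgfbr3*) and 4 transition factors (*Snai1*, *Snai2*, *Zeb1* and *Zeb2*). All 10 passed the filter on low counts and are among the 24177 genes tested, of 55487 gene identifiers counted in each heart. RNA was sequenced from whole hearts of 5 Pde2A-/- embryos (replicates A, B, 14, D and 15) and 6 Pde2A+/+ embryos (replicates 7, 11, 6, 8, H and E), 1 library per heart. The embryos were of the B6;129P2 background with the Pde2A tm1Dgen allele, came from matings of heterozygous mice, were taken alive at E14.5 and had not been treated. Both sexes were used, and the sex and litter of single hearts are not given. Pde2A is a phosphodiesterase that degrades cyclic AMP and cyclic GMP. The allele was inactivated in the germ line, so every cell of the embryo lacks it and effects that arise in the heart cannot be told apart from those that arise elsewhere.

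TGF-beta ligands are secreted in a latent form, bound to proteins of the extracellular matrix, and are released by integrins and proteases. An active ligand binds the type II receptor, which recruits and phosphorylates the type I receptor, and this one phosphorylates SMAD2 and SMAD3, which enter the nucleus with SMAD4. In the embryonic heart, endocardial cells of the cushions lose their junctions, become mesenchymal under TGF-beta and related signals, and build the valves and parts of the septa. SNAI1, SNAI2, ZEB1 and ZEB2 are zinc finger repressors that bind E-boxes and lower the transcription of junction genes during such a transition.

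*Pde2a* itself was read first. It had 0 to 2 counts per library and 7 in all, and the annotation places a second gene over it on the same strand, where STAR counts shared reads for neither gene. Its counts therefore say nothing about the genotype of a heart. Sense-strand counts summed to 35865537 to 42835382 per library. Cardiomyocyte markers were high in every heart, at 27330 to 35590 CPM summed over 8 genes, where CPM is the count of a gene scaled to a common library size. Some libraries also held markers of neighbouring organs. The summed level of 6 thymocyte genes was 88.0 CPM in Pde2A+/+ replicate 7 and at most 3.08 CPM in every other library. The sum of 6 liver genes lay between 33.9 and 106 CPM in Pde2A+/+ replicates 11, H and E, was 35.8 CPM in Pde2A-/- replicate D, and was at most 2.76 CPM elsewhere. The 3 lung epithelial genes reached 5.22 CPM in Pde2A+/+ replicate 11 and at most 0.274 CPM elsewhere. Results are therefore also given without replicates 7 and 11, and without all 5 of these hearts, which leaves 4 Pde2A-/- and 2 Pde2A+/+ hearts. The sum of 4 skeletal muscle genes was 5.97 and 4.05 CPM in Pde2A-/- replicates B and D. It was 3.18 and 2.98 CPM in Pde2A+/+ replicates 11 and E, and at most 1.41 CPM elsewhere. Pde2A-/- replicate B was not left out for this. Below, other organs' markers are those of thymus, lung and liver.

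Markers of other cell types differed between the genotypes as well. Over all genes tested, 8.93% were higher and 5.67% were lower in Pde2A-/- hearts at an adjusted p under 0.05 in edgeR. Of 8 macrophage genes, 7 were higher in Pde2A-/- hearts, and their sum was 199.5 to 249 CPM against 100.3 to 158 CPM. Of 7 genes of endothelium and endocardium, 3 were higher, with sums of 1159 to 1289 CPM against 909 to 1090 CPM. Of 7 fibroblast genes, 3 were higher, with sums of 1220 to 1561 CPM against 1039 to 1388 CPM. Of 7 erythroid genes, 6 were higher, and the sums were 429 to 876 CPM against 107 to 485 CPM. Of 7 megakaryocyte and platelet genes, 3 were higher, with sums of 20.65 to 31.1 CPM against 11.4 to 20.65 CPM. Of 6 smooth muscle and pericyte genes 2 were lower, with sums of 387 to 453 CPM against 403 to 498 CPM. Of 7 epicardial genes 1 was lower in edgeR, and 1 was higher at an unadjusted p under 0.05 and with DESeq2. The epicardial sums overlapped, at 317 to 516 CPM (median 483) against 257 to 549.5 CPM (median 351). Of 8 cardiomyocyte genes 1 was higher and 0 were lower in edgeR, with 3 lower at an unadjusted p under 0.05 and 3 with DESeq2. The lists for thymocytes, liver, lung epithelium, skeletal muscle, and neural crest and neurons gave 0 calls with edgeR and 0 with DESeq2, and 4 genes, all of the thymocyte list, were lower at an unadjusted p under 0.05. No marker was at 0 in all hearts. In whole hearts, more cells of a type and more RNA per cell cannot be told apart, and the part of these markers in the results below was not tested.

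The regions before the start sites of *Tgfb1*, *Tgfb2* and *Tgfbr2* are shown because they stand before the ligand and the receptor whose values did not overlap between the genotypes, and before the one ligand that did not pass the test. The sequences are the 250 bases before the start in RefSeq (GRCm38.p6), written 5′ to 3′ on the strand of the gene. Capitals mark TGACG, which is one arm of the cyclic AMP response element, and GGGCGG, which is the GC box bound by SP1. They also mark GCGTG, which is one form of the core of the hypoxia response element. Each is marked on either strand. The other form of that core, ACGTG, was not searched for or marked. The sequences lie at chr7:25686752-25687001 on the plus strand for *Tgfb1*, at chr1:186705990-186706239 on the minus strand for *Tgfb2*, and at chr9:116175364-116175613 on the minus strand for *Tgfbr2*.
Tgfb1: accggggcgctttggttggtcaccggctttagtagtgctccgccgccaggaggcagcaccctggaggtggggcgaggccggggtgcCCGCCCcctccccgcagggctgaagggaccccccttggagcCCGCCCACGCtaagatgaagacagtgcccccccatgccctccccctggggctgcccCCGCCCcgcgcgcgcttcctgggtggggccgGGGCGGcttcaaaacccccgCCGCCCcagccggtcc
Tgfb2: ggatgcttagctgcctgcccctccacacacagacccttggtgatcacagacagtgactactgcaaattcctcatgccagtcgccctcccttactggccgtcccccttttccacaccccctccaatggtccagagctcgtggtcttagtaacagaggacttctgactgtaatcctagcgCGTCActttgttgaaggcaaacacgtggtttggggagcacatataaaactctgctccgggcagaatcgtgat
Tgfbr2: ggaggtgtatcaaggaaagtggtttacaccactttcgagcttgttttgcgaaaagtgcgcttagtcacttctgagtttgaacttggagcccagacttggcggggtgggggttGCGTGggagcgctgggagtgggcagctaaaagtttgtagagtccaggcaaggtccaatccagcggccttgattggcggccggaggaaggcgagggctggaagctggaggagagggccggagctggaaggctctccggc

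The *Tgfb1* window was 75.2% G and C and held 5 GC boxes, the one at -123 sharing 1 base with a GCGTG match at -118 (positions are those of the first base, counted from the start). The *Tgfb2* window was 53.6% G and C, with no GC box and a TGACG match at -72. The *Tgfbr2* window was 58.4% G and C and held a GCGTG match at -138 and neither of the other motifs. Of all 32851 windows of this length, 32.7% held a GC box, 17.8% held TGACG and 28.2% held GCGTG. The whole palindrome TGACGTCA was in 1.55% of windows and in none of the 6 members with an entry, which are these 3 genes, *Tgfbr1*, *Snai1* and *Zeb2*. *Tgfb3*, *Tgfbr3*, *Snai2* and *Zeb1* had no entry. The E-box CACCTG, a letter form bound by SNAI and ZEB proteins, was in 17.2% of windows and among the members in that of *Snai1*, at -126. These matches are letters only and were not tied to binding in these hearts.

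Of the 10 genes, 5 were higher in Pde2A-/- hearts and 1 was lower at an adjusted p under 0.05, and 0 passed with a fold of 2 or more in edgeR, with DESeq2 or at an unadjusted p under 0.05. Over all genes tested, 8.93% were higher and 5.67% were lower by the same rule, and 2.59% passed it with a fold of at least 2, the threshold of the study. A gene needed only 10 counts summed over the hearts to be tested, while each member had at least 240 in every library. The shares over all genes, here and below, are therefore not for genes of like counts. The median log2 fold change of the 10 genes was 0.24, beside -0.02 over all genes. All adjusted p values are from edgeR's quasi-likelihood test, two-sided, with the Benjamini-Hochberg adjustment over all genes tested, and fold changes are Pde2A-/- over Pde2A+/+. CPM values are normalized between libraries, and the 95% intervals are not adjusted for the number of genes. Without Pde2A+/+ replicates 7 and 11, 2 members were higher and none was lower, and without the 5 hearts that held thymus, lung or liver markers, 1 was higher and none was lower.

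**Figure D1:**
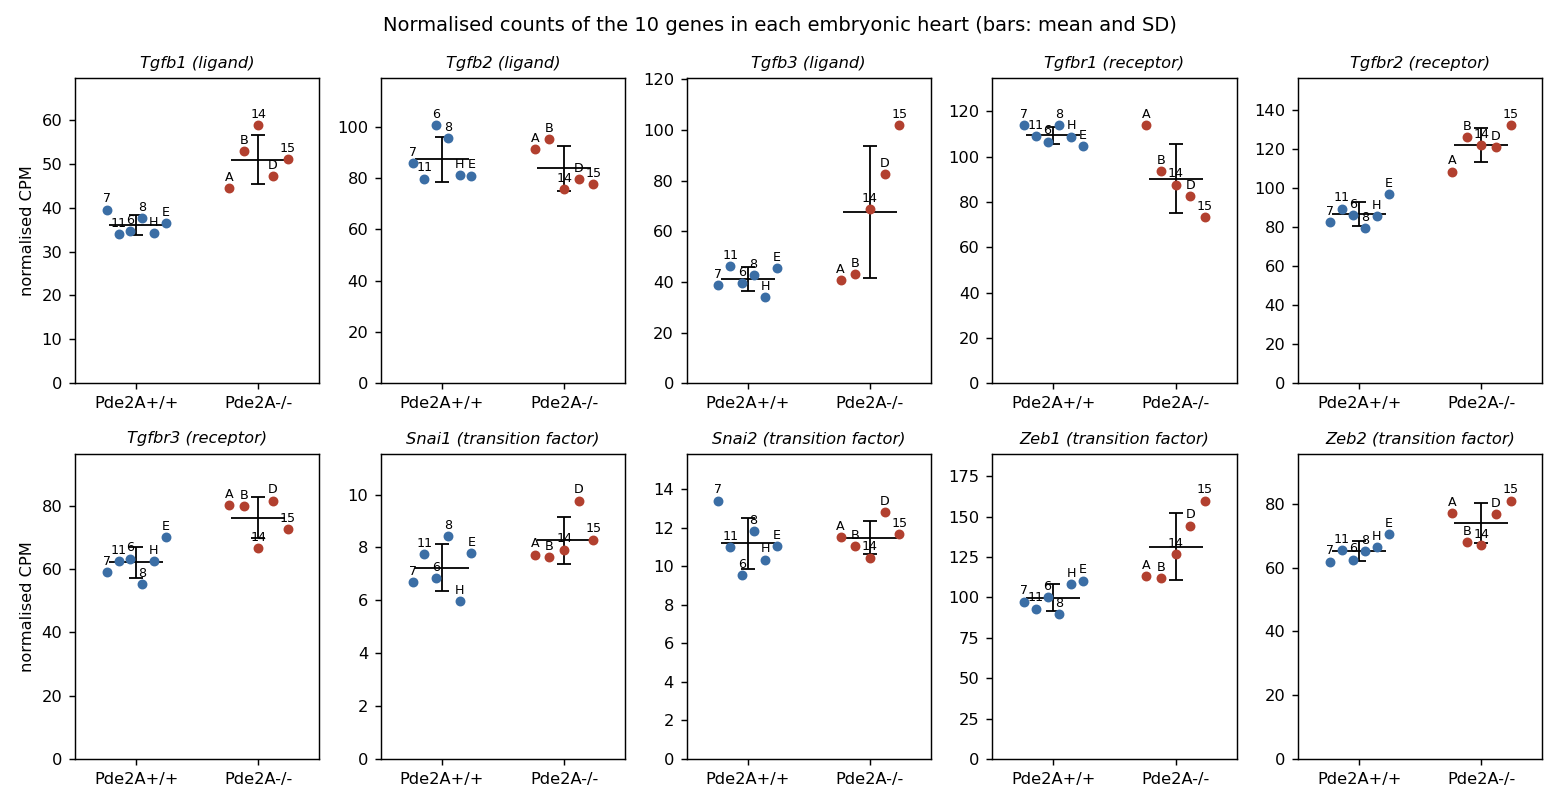
Normalized CPM (y axis, from 0) of each of the 10 genes in every heart, with 1 point per heart named by its replicate and bars for the mean and SD of the 6 Pde2A+/+ and 5 Pde2A-/- hearts. *Tgfb1*, *Tgfbr2* and *Zeb1* did not overlap between the genotypes, while *Tgfb3* was at the Pde2A+/+ level in Pde2A-/- replicates A and B and reached 102 CPM in replicate 15.

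The ligands differed from each other in their response. *Tgfb1* (ENSMUSG00000002603, chromosome 7 from 25687002 to 25705077 in GRCm38) encodes the ligand best known in inflammation and vessel growth. Its values in Pde2A-/- replicates A, B, 14, D and 15 were 44.4, 52.9, 58.9, 47.3 and 51.1 CPM, and the Pde2A+/+ hearts had 34.0 at the lowest, 35.5 at the median and 39.6 CPM at the highest. Every Pde2A-/- heart was above every Pde2A+/+ heart. The difference was 0.50 on the log2 scale (SE 0.0703, 95% interval 0.35 to 0.65), a 1.41-fold rise with an adjusted p of 0.000637 in edgeR. It passed when any 1 heart was left out, with log2 fold changes of 0.44 to 0.55, and without the 5 hearts named above it was 0.53 with an adjusted p of 0.0801. *Tgfb1* lies 75.72 megabases from *Pde2a* on the same chromosome.

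*Tgfb2* (ENSMUSG00000039239, chromosome 1 from 186622792 to 186705989) encodes the ligand with the best known part in cushion formation. Its values were 91.1, 95.1, 75.7, 79.6 and 77.5 CPM in Pde2A-/- replicates A, B, 14, D and 15, and 79.8, 83.5 and 101 CPM at the lowest, the median and the highest in Pde2A+/+ hearts. Replicates A and B lay within the Pde2A+/+ range and the other 3 just below it. The log2 difference was -0.06 (SE 0.0797, 95% interval -0.23 to 0.11, adjusted p 0.678 in edgeR), so that larger differences than these bounds lie outside the interval.

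*Tgfb3* (ENSMUSG00000021253, chromosome 12 from 86056745 to 86079041) encodes the ligand known from palate closure and cushion invasion. In Pde2A-/- replicates A, B, 14, D and 15 it had 40.8, 43.2, 68.9, 82.6 and 102 CPM, and in Pde2A+/+ hearts 34.1 at the lowest, 41.1 at the median and 46.2 CPM at the highest. Replicates A and B were inside the Pde2A+/+ range and the other 3 were above all of it. Between Pde2A-/- hearts the coefficient of variation was 38.7%, beside 11.1% between Pde2A+/+ hearts, the widest spread of the 10 genes in Pde2A-/- hearts. Between the genotypes it differed by 0.71 on the log2 scale (SE 0.203, 95% interval 0.28 to 1.15), a 1.64-fold rise with an adjusted p of 0.034 in edgeR. The call was lost when 1 of Pde2A-/- replicates 14, D and 15 or Pde2A+/+ replicates 7, 6, 8 and H was left out, where the log2 difference ranged from 0.52 (without replicate 15, adjusted p 0.0943) to 0.73, and the largest adjusted p was 0.0977, without replicate D. It was also lost without Pde2A+/+ replicates 7 and 11 together, at an adjusted p of 0.0738.

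The make-up of the ligand transcripts followed from these values. Per kilobase of annotated exon, *Tgfb3* made up 32.6% to 39.98% of the 3 ligands together in Pde2A+/+ hearts. It made up 32.9% and 32.2% in Pde2A-/- replicates A and B, and 45.1%, 51.4% and 56.2% in replicates 14, D and 15. *Tgfb2* made up 40.3% to 48.3% in Pde2A+/+ hearts, 43.0% and 41.4% in replicates A and B, and between 24.9% and 29.0% in replicates 14, D and 15. *Tgfb1* made up 19.1% to 23.0% in Pde2A+/+ hearts, and 24.1%, 26.5%, 25.9%, 19.7% and 18.9% in Pde2A-/- replicates A, B, 14, D and 15. *Tgfb2* was the largest share in all Pde2A+/+ hearts and in replicates A and B, and *Tgfb3* was the largest in replicates 14, D and 15. These shares are a description with no test, and the count of each gene is over its whole exons, rare ones included.

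Of the receptors, *Tgfbr2* and *Tgfbr3* were higher, and *Tgfbr1* was lower by a call just inside the threshold. *Tgfbr2* (ENSMUSG00000032440, chromosome 9 from 116084293 to 116175360) encodes the type II receptor, which binds the ligand. Its values in Pde2A-/- replicates A, B, 14, D and 15 were 108, 126, 122, 121 and 132 CPM, and Pde2A+/+ hearts had 79.3 at the lowest, 85.7 at the median and 97.0 CPM at the highest. All 5 Pde2A-/- hearts were above all 6 Pde2A+/+ hearts. The log2 difference was 0.49 (SE 0.0606, 95% interval 0.36 to 0.62), a 1.41-fold rise with an adjusted p of 0.000212 in edgeR, the smallest among the 10 genes. It passed when any 1 heart was left out, and it was the member that still passed without the 5 hearts that held other organs' markers, with a log2 difference of 0.57 and an adjusted p of 0.028.

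*Tgfbr1* (ENSMUSG00000007613, chromosome 4 from 47353222 to 47414931) encodes the type I receptor, the kinase that phosphorylates SMAD2 and SMAD3. It had 113.9, 93.6, 87.6, 82.5 and 73.3 CPM in Pde2A-/- replicates A, B, 14, D and 15, and the Pde2A+/+ hearts lay close together, with 104.7 at the lowest, 108.9 at the median and 113.9 CPM at the highest. Replicate A was at the top of the Pde2A+/+ range and the other 4 were below all of it. It fell by 0.28 on the log2 scale (SE 0.088, 95% interval -0.47 to -0.09), with an adjusted p of 0.0496 in edgeR. This value lies just inside the threshold. With no filter on counts it was 0.051, without Pde2A-/- replicate A it was 0.00206 with a log2 difference of -0.37, and with any other single heart of either genotype left out the call was lost, with adjusted p values of up to 0.126 (without replicate D) and a log2 difference of as little as -0.21 (without replicate 15).

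*Tgfbr3* (ENSMUSG00000029287, chromosome 5 from 107106570 to 107289629) encodes betaglycan, a coreceptor that presents TGF-beta2 to the type II receptor. It had 80.3, 80.0, 66.6, 81.7 and 72.5 CPM in Pde2A-/- replicates A, B, 14, D and 15, and 55.3, 62.6 and 70.0 CPM at the lowest, the median and the highest in Pde2A+/+ hearts. Replicate 14 lay within the Pde2A+/+ range and the other 4 were above it. Its rise was 0.29 on the log2 scale (SE 0.0676, 95% interval 0.15 to 0.44), 1.23-fold, with an adjusted p of 0.0142 in edgeR, and 0.0523 without Pde2A+/+ replicates 7 and 11. The gene shares 297 exon bases, 4.54% of its exons, with a predicted gene on the same strand, whose reads STAR would count for neither.

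The ratio of *Tgfbr2* to *Tgfbr1*, both per kilobase of exon, was 0.556 to 0.739 in Pde2A+/+ hearts. It was 0.758 in Pde2A-/- replicate A and 1.07, 1.11, 1.17 and 1.44 in replicates B, 14, D and 15. The ratio did not overlap between the genotypes, and in Pde2A-/- hearts other than replicate A the level of the type II receptor was above that of the type I receptor on this scale. This ratio was formed after the values were seen and has no test.

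**Figure D2:**
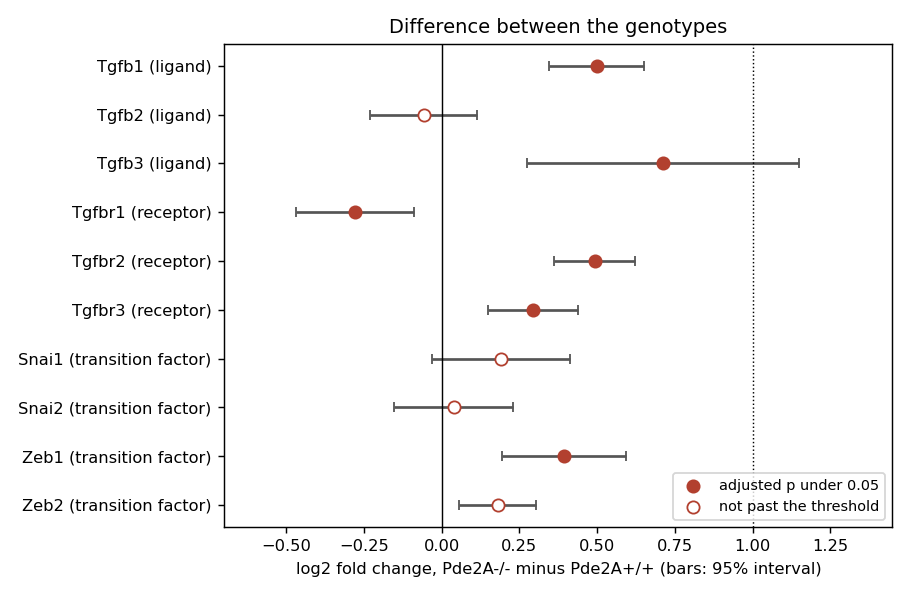
Log2 fold change of Pde2A-/- over Pde2A+/+ hearts (x axis) for each gene, with bars for the 95% interval, filled points for an adjusted p under 0.05 and a dotted line at a fold of 2. *Tgfbr1* is the member whose interval lies below 0, and the interval of *Tgfb3*, from 0.28 to 1.15, is the widest.

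Among the transition factors, *Zeb1* was higher and *Zeb2*, *Snai1* and *Snai2* gave no call in edgeR. *Zeb1* (ENSMUSG00000024238, chromosome 18 from 5591860 to 5775467), which encodes a repressor of E-cadherin and of epithelial microRNAs, had 113, 112, 127, 145 and 160 CPM in Pde2A-/- replicates A, B, 14, D and 15. The Pde2A+/+ hearts had 89.8 at the lowest, 98.9 at the median and 110 CPM at the highest. All Pde2A-/- hearts were above all Pde2A+/+ hearts, but replicates A and B by less than 3 CPM. *Zeb1* rose by 0.39 on the log2 scale (SE 0.0926, 95% interval 0.19 to 0.59), 1.32-fold, with an adjusted p of 0.0155 in edgeR. It passed when any 1 heart was left out, with a largest adjusted p of 0.0491 without Pde2A-/- replicate D, and it did not pass without Pde2A+/+ replicates 7 and 11, at an adjusted p of 0.057.

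*Zeb2* (ENSMUSG00000026872, chromosome 2 from 44983632 to 45117395), the second ZEB factor, which also binds SMAD proteins, had 77.1, 68.0, 67.1, 76.9 and 81.0 CPM in Pde2A-/- replicates A, B, 14, D and 15, and 61.9, 65.3 and 70.5 CPM at the lowest, the median and the highest in Pde2A+/+ hearts. Replicates A, D and 15 were above the Pde2A+/+ range and B and 14 within it. The log2 difference was 0.18 (SE 0.0578, 95% interval 0.06 to 0.30) with an adjusted p of 0.0531 in edgeR, just outside the threshold. It passed with DESeq2 at an adjusted p of 0.021, with edgeR's filterByExpr at 0.0407, and without Pde2A-/- replicate B (0.0276), Pde2A-/- replicate 14 (0.0447) or Pde2A+/+ replicate E (0.0463). Counts on the opposite strand, where an antisense gene lies, reached 5.16% of the counts of both strands for *Zeb2*, the highest share of the 10 genes, and overlapped between the genotypes, with 110 to 134 counts against 98 to 129.

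*Snai1* (ENSMUSG00000042821, chromosome 2 from 167538195 to 167542814), which encodes a repressor that often starts such a transition, was the member with the fewest counts, 240 to 352 per library. It had 7.73, 7.62, 7.91, 9.77 and 8.29 CPM in Pde2A-/- replicates A, B, 14, D and 15, and 5.96, 7.30 and 8.41 CPM at the lowest, the median and the highest in Pde2A+/+ hearts. Only replicate D was above the Pde2A+/+ range. The log2 difference was 0.19 (SE 0.103, 95% interval -0.03 to 0.41, adjusted p 0.231 in edgeR).

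*Snai2* (ENSMUSG00000022676, chromosome 16 from 14705852 to 14709385), which encodes the related factor Slug of neural crest and cushion mesenchyme, had 11.5, 11.02, 10.5, 12.8 and 11.7 CPM in Pde2A-/- replicates A, B, 14, D and 15, and 9.54, 11.01 and 13.4 CPM at the lowest, the median and the highest in Pde2A+/+ hearts. All Pde2A-/- values were inside the Pde2A+/+ range. The log2 difference was 0.04 (SE 0.0887, 95% interval -0.15 to 0.23, adjusted p 0.826 in edgeR), and without Pde2A-/- replicate D it was -0.0025.

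*Tgfb1*, *Tgfbr2* and *Zeb1*, 3 of the 10 genes, had values that did not overlap between the genotypes, beside 8.49% of all genes tested. The Pde2A-/- hearts did not move as one. Against the mean of the Pde2A+/+ hearts on the log2 scale, replicate 15 stood at 1.32 for *Tgfb3*, -0.58 for *Tgfbr1*, 0.61 for *Tgfbr2* and 0.68 for *Zeb1*, the most extreme Pde2A-/- heart for each. Replicate A stood at -0.005, 0.06, 0.32 and 0.18 for the same genes, nearest to the Pde2A+/+ mean for all but *Zeb1*, where replicate B was at 0.17. For *Tgfb1* the highest was replicate 14 at 0.71, and for *Tgfbr3*, *Snai1* and *Snai2* it was replicate D, at 0.40, 0.44 and 0.20. Replicate D is also the Pde2A-/- library that held liver markers. With 5 hearts no correlation between these genes was computed.

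**Figure D3:**
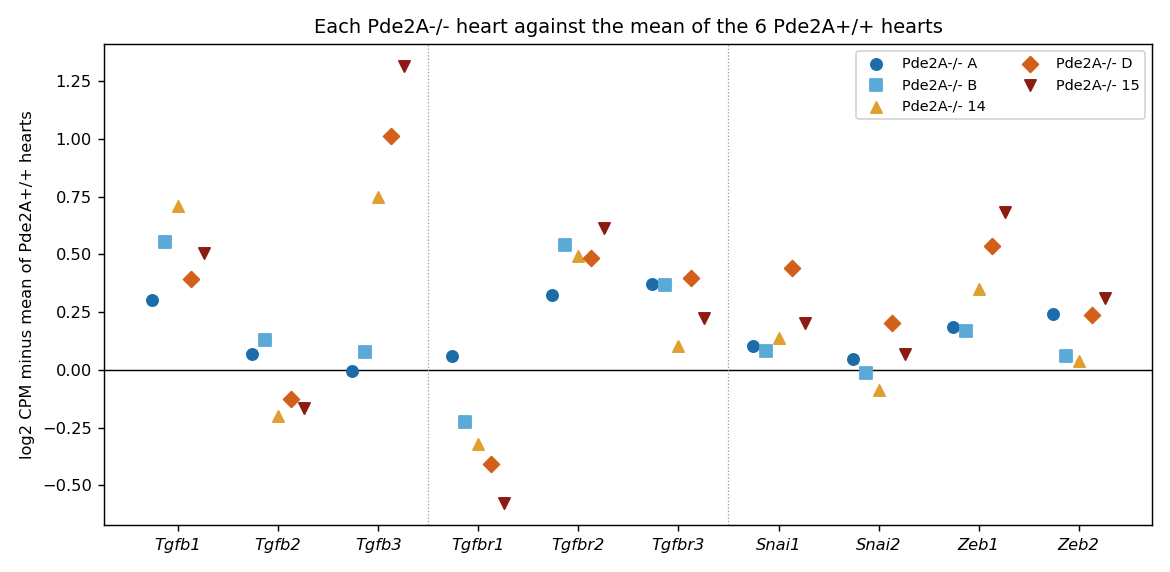
Log2 CPM of each Pde2A-/- heart minus the mean of the 6 Pde2A+/+ hearts (y axis) for each gene, with 1 symbol per heart. Replicate 15 is at 1.32 for *Tgfb3* and -0.58 for *Tgfbr1*, while replicate A is at -0.005 and 0.06 for these genes.

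Levels were compared between genes only per kilobase of annotated exon. In Pde2A+/+ hearts the mean level fell in the order *Tgfbr1* (16.8 CPM per kilobase ± 0.576 SD, n = 6), *Tgfb2* (15.1 ± 1.51), *Tgfb3* (12.2 ± 1.35), *Tgfbr2* (10.6 ± 0.744), *Zeb1* (9.73 ± 0.798), *Tgfbr3* (9.50 ± 0.748), *Tgfb1* (7.15 ± 0.438), *Snai2* (5.53 ± 0.657), *Snai1* (4.47 ± 0.553) and *Zeb2* (3.28 ± 0.155). Neighbours in this order overlapped over hearts, except *Tgfb2* and *Tgfb3*, *Tgfbr3* and *Tgfb1*, *Tgfb1* and *Snai2*, and *Snai1* and *Zeb2*. In Pde2A-/- hearts *Tgfb3* came first, at 19.95 ± 7.72 CPM per kilobase (n = 5), followed by *Tgfbr2* at 14.9 ± 1.07, *Tgfb2* at 14.5 ± 1.51 and *Tgfbr1* at 13.8 ± 2.33, and the other 6 kept their places. The ranges of these 4 overlapped in Pde2A-/- hearts. The exons of *Zeb2* add up to 19942 bases and those of *Zeb1* to 10266 bases when every annotated transcript is joined, which lowers their levels on this scale.

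**Figure D4:**
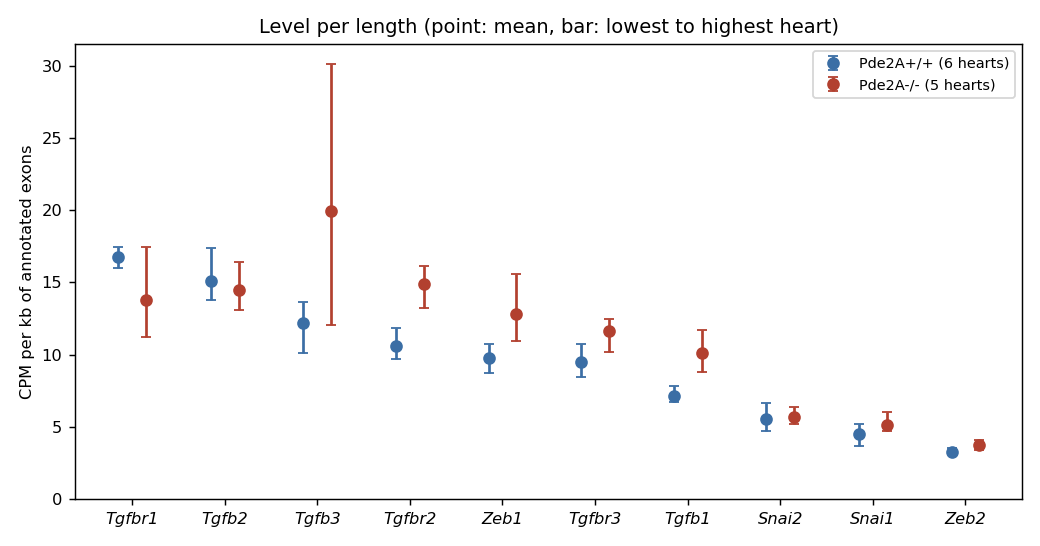
Level of each gene in CPM per kilobase of annotated exon (y axis, from 0), ordered by the Pde2A+/+ mean, with points for the mean and bars from the lowest to the highest heart. *Tgfb3* stood below *Tgfbr1* and *Tgfb2* in Pde2A+/+ hearts at 12.2 and first in Pde2A-/- hearts at 19.95, where its bar is the longest.

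The other genes of the pathway were read from 9 lists of 102 genes in all. Of these, 20 were higher in Pde2A-/- hearts and 6 were lower, which is 19.6% and 5.88%, beside 8.93% and 5.67% over all genes tested. The median log2 fold change of the 102 genes was 0.04. The lists were written with earlier results of these data known, and these counts are a description. Without Pde2A+/+ replicates 7 and 11 the counts stayed within 1.5 times of these, and without the 5 hearts that held other organs' markers 2 were higher, *Itgav* and *Tgfbi*, and none was lower.

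**Figure D5:**
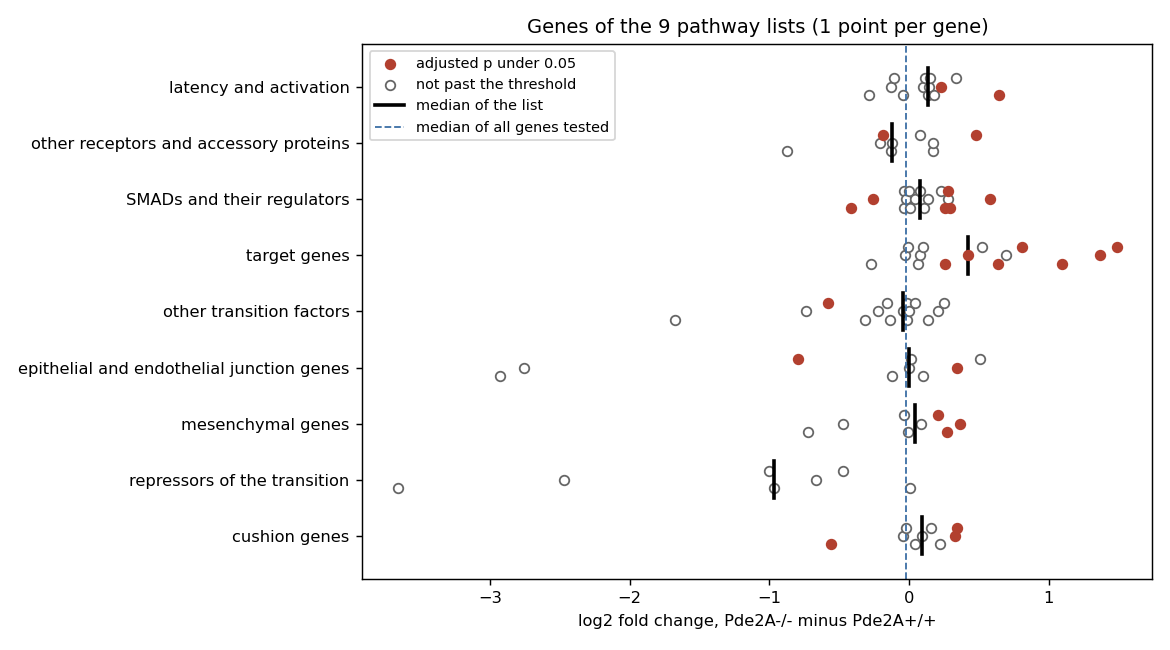
Log2 fold change of Pde2A-/- over Pde2A+/+ hearts (x axis) of each gene of the 9 lists, with filled points for an adjusted p under 0.05, a black bar for the median of each list and a dashed line for the median of all genes tested. The target genes reach furthest to the right, up to 1.49. The open points far to the left include *Esrp1*, *Epcam* and *Cdh1*, epithelial genes that were high in Pde2A+/+ replicates 7 and 11.

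Of 13 genes of ligand latency and activation, 2 were higher and 0 were lower in edgeR, with 1 lower at an unadjusted p under 0.05 and 1 with DESeq2. *Itgav*, the integrin alpha V chain that releases latent TGF-beta, had 155 to 188 CPM in Pde2A-/- hearts and 99.2 to 116 CPM in Pde2A+/+ hearts, a rise of 0.64 on the log2 scale (SE 0.0581, adjusted p 1.65e-05 in edgeR) in which no hearts overlapped. *Emilin1*, a matrix protein that restrains processing of the TGF-beta1 precursor, had 288 to 325 CPM against 255 to 282 CPM and also did not overlap (0.23 on the log2 scale, adjusted p 0.0061). *Nrros*, which holds latent TGF-beta1 on macrophages and microglia, had 7.83 to 9.28 CPM against 5.37 to 11.4 CPM and did not pass (0.34, adjusted p 0.22). Its value of 11.4 CPM was in Pde2A+/+ replicate 7, the library with thymocyte markers, and without that heart the log2 difference was 0.55 with an adjusted p of 0.00156.

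Of 9 other receptors and accessory proteins, 1 was higher and 1 was lower. *Eng*, the endothelial coreceptor endoglin, had 281 to 367 CPM in Pde2A-/- hearts and 188 to 249 CPM in Pde2A+/+ hearts, a rise of 0.48 on the log2 scale (SE 0.0811, adjusted p 0.00233 in edgeR). The endothelial markers had a higher sum in every Pde2A-/- heart too, as given above. *Acvrl1*, the endothelial type I receptor ALK1, had 19.9 to 28.05 CPM against 19.3 to 25.2 CPM (0.17, adjusted p 0.272). *Bambi*, a decoy receptor without a kinase domain, fell by 0.19 on the log2 scale (adjusted p 0.0467), with 58.0 to 69.9 CPM against 68.7 to 80.7 CPM. That call was lost with no filter on counts, with reads of both strands, with globin genes left out, with the naming style of the replicates as a covariate, and when any single heart other than Pde2A+/+ replicate E was left out. *Acvr1c*, the type I receptor ALK7, had 2.03 to 4.96 CPM against 3.58 to 9.27 CPM (-0.87, adjusted p 0.0553 in edgeR). It passed with DESeq2 (adjusted p 0.0109), with filterByExpr (0.043), with the *Xist* level as a covariate (0.0479) and without Pde2A-/- replicate A (-1.15, adjusted p 0.00813), and its log2 difference was -0.47 (adjusted p 0.498) without the 5 hearts that held other organs' markers.

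Of 17 SMAD genes and their regulators, 4 were higher and 2 were lower. Without Pde2A-/- replicate 14 the number higher was 2, without Pde2A+/+ replicates 7 and 11 it was 1, and without the 5 hearts that held other organs' markers 0 were higher and 0 lower. The receptor SMADs did not pass in edgeR, with *Smad2* at 87.0 to 94.0 CPM against 85.3 to 101 CPM (-0.03, adjusted p 0.713 in edgeR) and *Smad3* at 73.0 to 87.2 CPM against 73.0 to 76.0 CPM (0.13, adjusted p 0.0845). *Smad3* passed with DESeq2 (adjusted p 0.0434) and without Pde2A-/- replicate B (0.0167). *Smad4*, the common partner, had 101 to 156 CPM against 101 to 108 CPM and did not pass in edgeR (0.28, adjusted p 0.059). It passed with DESeq2 (adjusted p 0.0253), with filterByExpr (0.0485), with the naming style as a covariate (0.0365) and without Pde2A-/- replicate A (0.0193) or B (0.0126), and the highest adjusted p without 1 heart was 0.151. The inhibitory *Smad7*, itself a TGF-beta target, had 51.5, 56.0, 64.9, 70.9 and 79.9 CPM in Pde2A-/- replicates A, B, 14, D and 15 and 36.1 to 50.7 CPM in Pde2A+/+ hearts. Its rise was 0.58 on the log2 scale (SE 0.112, adjusted p 0.0055), and no hearts overlapped. *Smurf1*, a ubiquitin ligase that works with SMAD7, had 70.9 to 94.4 CPM against 62.0 to 71.4 CPM (0.29, adjusted p 0.0134), and did not pass without Pde2A+/+ replicates 7 and 11 (0.26, adjusted p 0.0531). *Pmepa1*, another target that holds SMAD signaling back, went the other way and fell by 0.42 (SE 0.0935, adjusted p 0.0123), with 25.1 to 37.6 CPM against 38.8 to 45.2 CPM and no overlap.

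Of 15 target genes, 7 were higher and 0 were lower in edgeR, with 1 lower at an unadjusted p under 0.05 and 1 with DESeq2, and their median log2 fold change of 0.42 was the highest of the 9 lists. *Tgfbi*, a matrix protein named for its induction by TGF-beta and also made by macrophages, had 120, 184, 166, 146 and 181 CPM in Pde2A-/- replicates A, B, 14, D and 15 and 56.0 to 72.2 CPM in Pde2A+/+ hearts. Its rise was 1.37 on the log2 scale (SE 0.102, adjusted p 5.66e-06 in edgeR), a fold of 2.58. *Bhlhe40*, a transcription factor that also answers to hypoxia, rose by 1.49 (SE 0.258, adjusted p 0.00286), with 68.1, 94.8, 121, 205 and 200 CPM in Pde2A-/- replicates A, B, 14, D and 15 against 38.4 to 67.6 CPM. *Ccn2*, the matricellular factor CTGF, had 70.7, 133, 187, 204 and 321 CPM in Pde2A-/- replicates A, B, 14, D and 15 against 65.5 to 188 CPM and did not pass (0.69, adjusted p 0.167), and its log2 difference ranged from 0.40 without replicate 15 to 0.90 when 1 heart was left out. It passed in 1 of those omissions, without replicate A (adjusted p 0.0332), and was at 0.18 (adjusted p 0.877) without the 5 hearts that held other organs' markers. The number of target genes higher was 4 without Pde2A-/- replicate D and 4 without Pde2A-/- replicate 15. Without Pde2A+/+ replicates 7 and 11, 4 target genes were higher, and without the 5 hearts with other organs' markers 1 was, *Tgfbi*. Replicates 15 and D, high for *Tgfb3* and *Zeb1*, were the highest pair for *Bhlhe40* and *Ccn2* as well, and replicate A was the lowest Pde2A-/- heart for both and for *Tgfbi*.

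Of 15 other transition factors, 0 were higher in edgeR, at an unadjusted p under 0.05 or with DESeq2, and 1 was lower in edgeR. This was *Prrx2*, a mesenchymal homeobox gene, which had 11.05 to 20.1 CPM against 17.8 to 27.8 CPM and fell by 0.58 on the log2 scale (SE 0.149, adjusted p 0.0224 in edgeR). That call was lost without Pde2A-/- replicate D (adjusted p 0.0578), Pde2A-/- replicate 15 (0.0588) or Pde2A+/+ replicate 6 (0.0508), and without Pde2A+/+ replicates 7 and 11 together (0.0566). *Twist1*, the factor of cranial and cushion mesenchyme, had 10.9 to 15.3 CPM against 11.2 to 17.8 CPM (-0.16, adjusted p 0.445).

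Of 9 junction genes, 1 was higher and 1 was lower. *Cldn5*, the claudin of endothelial tight junctions, had 10.2 to 13.9 CPM in Pde2A-/- hearts and 17.8 to 25.7 CPM in Pde2A+/+ hearts and fell by 0.79 on the log2 scale (SE 0.114, adjusted p 0.000701 in edgeR), with no overlap. *Cdh5*, the endothelial cadherin, had a mean of 317 CPM in both genotypes (SD 34.7, n = 5, and 27.2, n = 6), so a log2 difference of 0.00 (95% interval -0.17 to 0.17). *F11r*, an adhesion molecule of junctions, had 72.1 to 96.4 CPM against 58.7 to 69.2 CPM (0.35, adjusted p 0.0119). The epithelial cadherin *Cdh1* had 25.0 and 21.7 CPM in Pde2A+/+ replicates 7 and 11, at most 0.600 CPM in the other Pde2A+/+ hearts, and 0.365, 0.472, 1.87, 0.971 and 2.29 CPM in Pde2A-/- replicates A, B, 14, D and 15. *Epcam*, the epithelial adhesion molecule, followed it, with 15.4 and 16.6 CPM in those 2 hearts. The log2 difference of *Cdh1*, -2.76 (adjusted p 0.139), and that of *Epcam*, -2.93 (adjusted p 0.119 in edgeR and 0.0487 with DESeq2), turned to 1.47 (adjusted p 0.0977) and 1.33 (adjusted p 0.115) without them.

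Of 8 mesenchymal genes, 3 were higher and 0 were lower by any of these rules. The median log2 fold change of the list was 0.04, beside -0.02 over all genes. Only 4 of the 8 genes were above 0, and the lowest was at -0.72. *Vim*, the intermediate filament vimentin, had 1627 to 2038 CPM in Pde2A-/- hearts and 1371 to 1624 CPM in Pde2A+/+ hearts (0.28 on the log2 scale, SE 0.061, adjusted p 0.0118 in edgeR). *Mmp2*, the gelatinase of the matrix, had 198 to 236 CPM against 161 to 184 CPM (0.37, adjusted p 0.00086), and *Mmp14*, which activates it, had 218 to 257 CPM against 192 to 217 CPM (0.20, adjusted p 0.0257), a call that was lost when 1 of Pde2A-/- replicates 14, D and 15 or Pde2A+/+ replicates 6 and H was left out, at adjusted p values of 0.0551 to 0.0828, and without Pde2A+/+ replicates 7 and 11 together (0.0611). None of the 3 overlapped between the genotypes. Of 7 repressors of the transition 0 passed in edgeR, with 2 lower at an unadjusted p under 0.05 and 1 with DESeq2. Their median of -0.97, the lowest of the lists, rested on Pde2A+/+ replicates 7 and 11, since it was -0.48 without replicate 11, 0.25 without both and 0.14 without the 5 hearts. *Esrp1*, an epithelial splicing factor with the largest difference, -3.66 (adjusted p 0.0828 in edgeR and 0.024 with DESeq2), had 7.61 and 6.79 CPM in Pde2A+/+ replicates 7 and 11 and at most 0.386 CPM in every other heart. Of 9 cushion genes, 2 were higher and 1 was lower. *Vcan*, the proteoglycan of cardiac jelly, had 483 to 566 CPM against 343 to 491 CPM (0.33, adjusted p 0.0147), and *Nfatc1*, the endocardial factor of valve growth, 51.0 to 64.6 CPM against 37.5 to 50.6 CPM (0.34, adjusted p 0.0189). Without Pde2A+/+ replicates 7 and 11 *Nfatc1* did not pass (0.30, adjusted p 0.0622), which left 1 cushion gene higher. *Tbx2*, a repressor of chamber genes in the atrioventricular canal, fell by 0.56 (SE 0.121, adjusted p 0.0105), with 9.23 to 13.4 CPM against 14.2 to 21.6 CPM and no overlap. *Has2*, the hyaluronan synthase of cardiac jelly, had 8.22, 7.93, 5.52, 3.75 and 3.42 CPM in Pde2A-/- replicates A, B, 14, D and 15 against 3.59 to 5.82 CPM (0.22, adjusted p 0.57).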

How the data were processed

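RNA-seq counts of 5 Pde2A-/- and 6 Pde2A+/+ embryonic hearts were used, 1 library per heart, grouped by the labels. Per the labels and the study's methods, the authors made stranded mRNA libraries, sequenced single-end reads on a NextSeq instrument and mapped them with STAR to GRCm38 (mm10); versions and the annotation release are not given in the sources used here. The deposited values are whole-number read counts per gene, without normalization or filtering, for both strands together, the opposite strand and the sense strand. The sense strand was used. Reads that lie on several genes are in no count. Together with unmapped reads, reads mapped to several places and reads on no gene, they made up 19.6% to 22.4% of reads. All of these stayed out of library sizes.

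Gene positions were taken from GENCODE M21 (55227 of 55487 identifiers matched), sequences from RefSeq. Genes with at least 10 counts summed over the 11 hearts were kept. The genotypes were compared with edgeR 4.0.16 in R 4.3.3 (TMM, quasi-likelihood test, Benjamini-Hochberg adjustment); a gene passed at an adjusted p under 0.05. CPM are TMM-normalized, and log2 CPM per heart used a prior count of 2. Tables and plots were made with Python, pandas 2.3.3 and matplotlib. The fit was run on simulated counts with planted 2-fold changes in either direction. Changes as small as those of the members, and libraries that hold other organs' markers, were not simulated. Whether hearts came from separate litters is not stated. The p-values treat the hearts as independent and measure the spread between these hearts. They do not account for litters that hearts may share or that may differ between the genotypes.

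The genes, the lists and the tests were chosen with earlier results of these data known. The genes named are the 10 members; *Pde2a*; in each list the 3 largest changes among genes that passed, or, where fewer than 3 passed, those and the largest other; and *Smad2*, *Smad3*, *Smad4*, *Smad7*, *Eng*, *Acvrl1*, *Ccn2*, *Twist1*, *Has2*, *Vim*, *Cdh1* and *Cdh5*. For 2 list genes no single value is reported; list counts include both. Alternatives were DESeq2 1.42.0, its size factors in edgeR, filterByExpr, no filter, the counts of both strands together, removal of globin genes, the replicates' naming style or *Xist* as a covariate, an unadjusted p, and each heart left out. Leaving out hearts that held markers of other organs was chosen after seeing the data.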

Additional observations from a re-analysis of the deposited data

Results flagged for a closer look

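Of 82 groups of hearts, from the 10 members and 31 named genes of the pathway in each genotype, 3 held a heart that stood apart from the others by Dixon's test, which chance gives in about 1 of 20 groups. None of them was a member. *Eng* was 367 CPM in Pde2A-/- replicate B, with 299 CPM in the next heart, and *Nfatc1* was 64.6 CPM in the same heart, with 53.6 CPM in the next; the endothelial markers also had their highest sum there, 1289 CPM. *Nrros* was 11.4 CPM in Pde2A+/+ replicate 7, with 6.24 CPM in the next heart, in the library whose thymocyte markers summed to 88.0 CPM. The cause of these values was not tested.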

How the results depend on the processing

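The log2 differences of *Tgfb1*, *Tgfbr2*, *Tgfbr3* and *Zeb1* kept their direction and passed the test in all 8 alternatives that keep every heart and when any 1 heart was left out, with ranges of 0.44 to 0.55, 0.46 to 0.54, 0.27 to 0.34 and 0.32 to 0.45 when 1 heart was left out. Over the same single omissions *Tgfb2* ranged from -0.11 to -0.01, *Tgfb3* from 0.52 to 0.85, *Tgfbr1* from -0.37 to -0.21, *Snai1* from 0.13 to 0.24, *Snai2* from -0.0025 to 0.10 and *Zeb2* from 0.15 to 0.21. *Tgfbr1* was at -0.27 with no filter, no longer past the threshold, and *Zeb2* passed at 0.18 with DESeq2 and 0.17 with filterByExpr.

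Between 4 and 6 members were higher and 0 or 1 lower without 1 heart, 0 with a fold of at least 2, and 0 were lower with no filter. Without replicates 7 and 11 of Pde2A+/+, *Tgfb3* (0.73), *Tgfbr1* (-0.27), *Tgfbr3* (0.28) and *Zeb1* (0.36) did not pass, which left 2 members higher and 0 lower. Without the 5 hearts that held other organs' markers, *Tgfb1* (0.53), *Tgfb3* (0.64), *Tgfbr1* (-0.25), *Tgfbr3* (0.35) and *Zeb1* (0.44) did not pass, which left 1 higher and 0 lower; these fits have fewer hearts, 6 in the last. The whole-table counts fell with them, from 2160 genes higher and 1372 lower to 353 and 29 without the 5 hearts (277 and 7 with a fold of at least 2), and to 744 lower (48 with a fold of at least 2) without replicates 7 and 11. DESeq2 gave 2354 lower (57 with a fold of at least 2), filterByExpr 37 lower with a fold of at least 2, and an unadjusted p 3761 higher and 3607 lower (436 with a fold of at least 2). Without 1 heart 1288 to 2887 were higher (396 to 675 with a fold of at least 2) and 414 to 2165 lower (35 to 137); fewest were called without Pde2A-/- replicates 14, D or 15, where 1408, 1288 and 1381 were higher. Of the 102 pathway genes, 15 to 24 were higher and 4 to 8 lower without 1 heart, 2 and 0 without the 5 hearts, 11 lower with DESeq2 and 16 lower at an unadjusted p.

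*Cdh5*, at 0.00034, was -0.00051 with DESeq2, -0.00051 with its size factors, -0.0047 with filterByExpr, -0.042 with the naming style and -0.0082 with *Xist* as a covariate, -0.076 without replicates 7 and 11, and between -0.052 and 0.037 without 1 heart. *Epcam* was 1.33 without replicates 7 and 11 and 1.79 without the 5 hearts, *Cdh1* 1.47 and 2.14, and *Esrp1* 0.99 and 2.40. *Epcam*, *Cdh1* and *Esrp1* were high in Pde2A+/+ replicates 7 and 11, as given above. The cause of those levels and of the small shifts of *Cdh5* was not tested. No paired analysis was possible because the genotypes share no replicate names. The members had at least 240 counts in every library.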
